A study of Mus musculus with 6 samples.

Results

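The 9 genes described here encode the enzymes and essential partners that write and remove cytosine methylation in DNA: Dnmt1, Dnmt3a, Dnmt3b, Uhrf1, Uhrf2, Tet1, Tet2, Tet3 and Tdg. They were chosen by name from the 35976 gene symbols of a table of read counts, and all 9 were found in it. Polyadenylated RNA came from mouse embryonic chondrocytes, the matrix-forming cells of cartilage, taken from hind limb articular cartilage at embryonic day 18.5 on a C57BL/6 x 129S4/SvJae background. All cells were grown on tissue culture plastic for 16 population doublings with doxycycline at 2 µg/ml, which induced a histone H3.3 transgene. In the H3K9M group (3 libraries, replicates 1, 3 and 5) that histone carried methionine in place of the lysine of H3K9, and the labels give methylation at H3K9 as suppressed. In the H3WT control group (3 libraries, replicates 1, 2 and 4) it was wild-type H3.3, so both groups carried a transgene and received the drug. The labels do not say whether the libraries of a group came from separate animals or cultures, so the p-values measure the spread between these libraries. The comparison asked whether the transcripts of these enzymes differed between expanded chondrocytes with and without the H3K9M histone.

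DNA methylation is copied at each cell division by DNMT1, the maintenance methyltransferase, which UHRF1 brings to newly replicated DNA. UHRF1 recognises half-methylated CpG sites and also binds histone H3 methylated at H3K9, which links this mark to the copying of DNA methylation. DNMT3A and DNMT3B place methyl groups on unmethylated DNA. The TET enzymes oxidise methylcytosine, and the glycosylase TDG cuts out the most oxidised forms so that base excision repair can restore cytosine. In heterochromatin, H3K9 methylation and DNA methylation commonly mark the same silenced sequences.

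Libraries held 15113675 to 19606082 counts. The chondrocyte label was checked against 18 markers, all of which passed the filter on low counts. Levels below are CPM, read counts scaled to library size with TMM factors for composition. Values for single libraries are listed in the order of replicates 1, 2 and 4 for H3WT and 1, 3 and 5 for H3K9M. Col2a1, the main cartilage collagen, ranged from 4913 to 14110 CPM, and Col1a1, a fibroblast collagen, from 3685 to 18928 CPM, so cartilage and fibroblast collagens were present together. The summed level of the 18 chondrocyte markers ran from 7593 to 11841 CPM in H3K9M and from 7457 to 19917 CPM in H3WT. Of these 18 genes 16 had lower estimates in H3K9M, with a median log2 fold change of -0.75, and 0 had an adjusted p under 0.05 (edgeR). At an unadjusted p under 0.05, the cartilage collagens Col9a1 (-1.89) and Col9a2 (-2.13) were lower and Prg4 (0.74), the joint lubricant, was higher. These were 2 lower and 1 higher of the 18, against 5.77% and 6.42% of all genes. The groups overlapped for both collagens. H3WT replicate 1 had 38.3 CPM of Col9a1 and 14.7 CPM of Col9a2, within the H3K9M ranges of 25.2 to 68.6 and 7.64 to 23.5 CPM. With DESeq2 the adjusted p of Prg4 was 0.00936. Of 12 fibroblast markers 7 had higher and 5 lower estimates in H3K9M, with a median log2 fold change of 0.09. Fn1 (0.44) and S100a4 (1.01) were the 2 that were higher without overlap, against 10.7% of all genes. Of 13 skeletal muscle markers 4 passed the filter, and their summed level was 20.8 to 189.5 CPM in H3K9M against 3.36 to 9.91 CPM in H3WT. Myod1 and Myh3 passed only through their H3K9M libraries, so the filter partly fixed the direction of these sums. Myod1, the muscle master factor, had 4.29 to 57.0 CPM against 0 to 1.04 CPM. With DESeq2 the adjusted p was 0.0151 for Des, 0.0022 for Tnnt3 and 0.137 for Myod1 and Myh3. Among markers that did not pass, Myog had 60, 195 and 4 counts in H3K9M and 0 in each H3WT library. Ttn had 29, 90 and 5 counts in H3K9M and 0, 0 and 1 in H3WT. Myf5, Myf6, Pax7 and Myh8 were at 0 counts everywhere. Of 10 macrophage and blood markers 4 passed, with sums of 11.4 to 22.6 CPM in H3K9M and 5.83 to 13.5 CPM in H3WT, and Ptprc and Adgre1 were at 0. None of 8 endothelial markers passed (0 of 8). The part of these chondrocyte and other cell markers in the results below was not tested, and in bulk RNA fewer cells of a type cannot be told apart from less RNA per cell.

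No difference between the groups passed the test for any enzyme of DNA methylation or demethylation. Of the 9 genes, 0 reached an adjusted p under 0.05 by the quasi-likelihood test of edgeR, with Benjamini-Hochberg adjustment over 13761 genes, and over all tested genes the share was 0%. DESeq2 and limma-voom also called 0 of the 9, where DESeq2 called 2.38% of the genes it adjusted. At an unadjusted p under 0.05 there was 1 of the 9, Uhrf1, against 12.2% of all genes in either direction and 5.77% that were lower in H3K9M. The values of the groups overlapped for all 9 enzymes, while they were apart for 19.4% of all genes. The median log2 fold change over the 9 was -0.08, with 5 lower and 4 higher in H3K9M, and over all genes it was -0.003. All 9 lay above the CPM equivalent of the filter in all 6 libraries. The pattern inside the set was uneven. The maintenance pair Dnmt1 and Uhrf1 had lower means in H3K9M, and the estimates of the de novo enzymes, Tet2, Tet3 and Uhrf2 lay between -0.09 and 0.15. Tet1 had the largest estimate in size (-0.96) and the lowest level per kb.

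**Figure D1:**
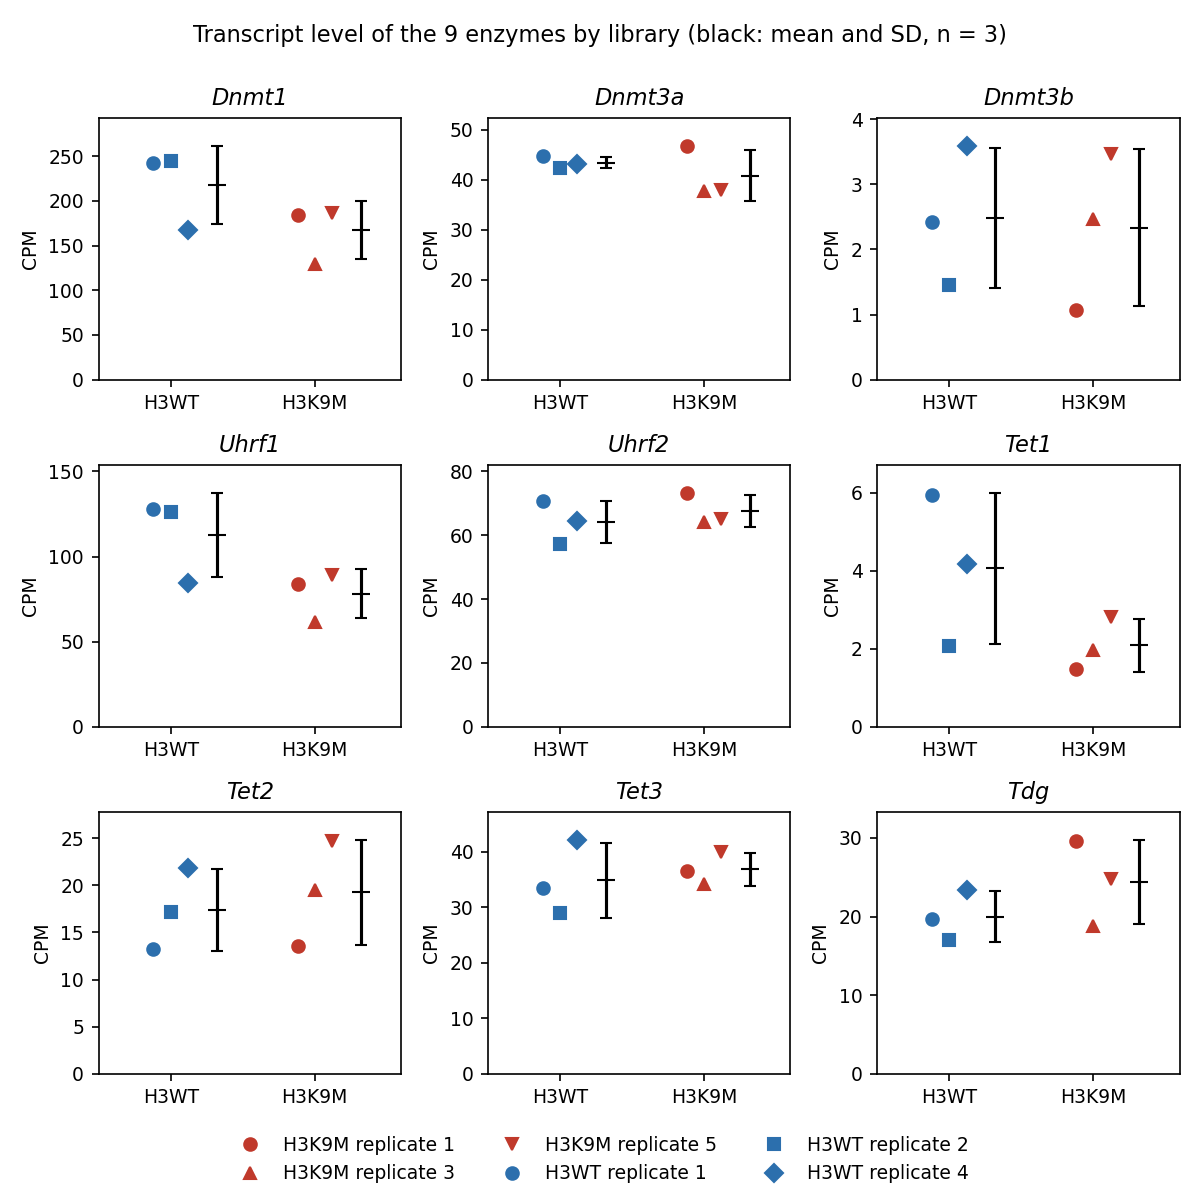
Transcript level in CPM (linear axis from 0) of each of the 9 enzymes in the 3 H3WT (blue) and 3 H3K9M (red) libraries, with symbols for replicates and black bars for the mean and SD. In every panel the 2 groups overlap, and in the Dnmt1 and Uhrf1 panels H3WT replicates 1 and 2 stand above the other 4 libraries.

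**Figure D2:**
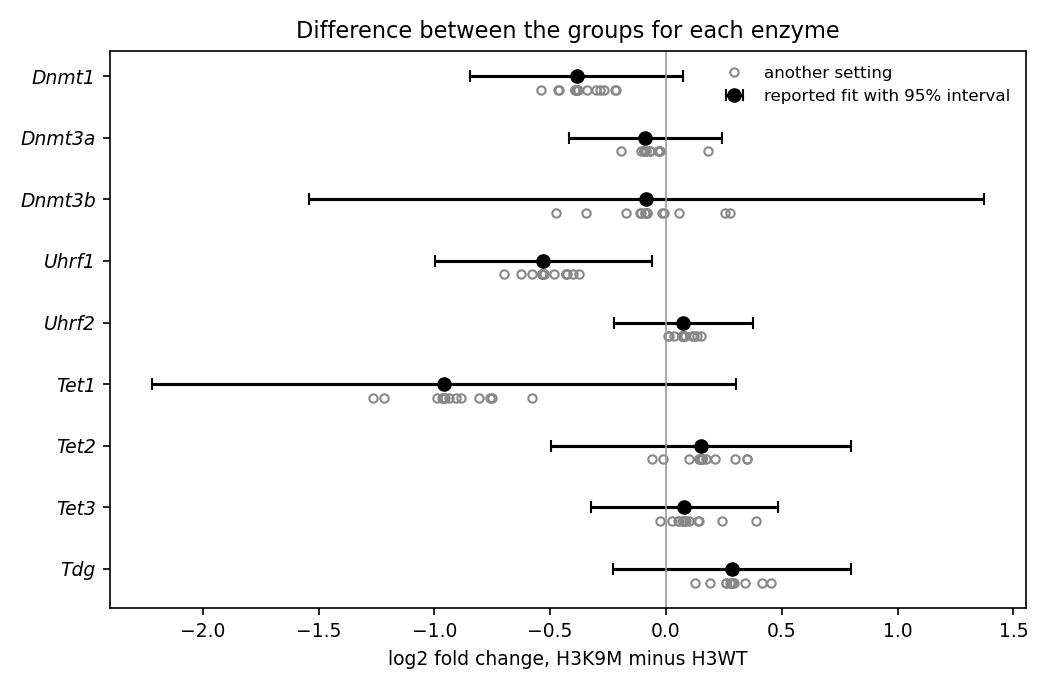
Log2 fold change (H3K9M minus H3WT) of each enzyme in the reported fit with its 95% interval (black) and under 15 other settings (open circles). Only the interval of Uhrf1 lies wholly on one side of 0, and those of Tet1 and Dnmt3b are the widest.

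Per kilobase of the longest annotated transcript, the enzymes spanned a wide range of levels. Dnmt1 stood first with a median of 31.7 CPM per kb over the 6 libraries (22.1 to 41.6), followed by Uhrf1 at 24.2 (17.2 to 35.7) and Uhrf2 at 18.3 (16.2 to 20.7). The ranges of Dnmt1 and Uhrf1 overlapped, as did those of Uhrf1 and Uhrf2, yet Dnmt1 was above Uhrf1 within each of 6 libraries and Uhrf1 above Uhrf2 in 5 of 6. Tdg came next at 6.14 CPM per kb (4.84 to 8.45), then Dnmt3a at 4.42 (3.89 to 4.83), Tet3 at 3.24 (2.66 to 3.87) and Tet2 at 2.00 (1.44 to 2.70). Tet3 and Tet2 overlapped over the libraries, but Tet3 was the higher in 6 of 6. Dnmt3b, at 0.565 CPM per kb (0.248 to 0.832), and Tet1, at 0.170 (0.103 to 0.414), were last and also overlapped. Within a library, Dnmt1 exceeded Tet1 by a median of 162-fold and Dnmt3a by a median of 7.31-fold per kb. With all annotated exons of a gene joined as its length, the order of the 9 medians was the same, but Uhrf2 had a median of 7.53 CPM per kb and Dnmt3a exceeded Tet3 in 5 libraries rather than 6. Per kb, then, the maintenance genes led, Dnmt3a was the higher of the de novo genes, and Tet3 and Tet2 were the higher of the oxidase genes.

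**Figure D3:**
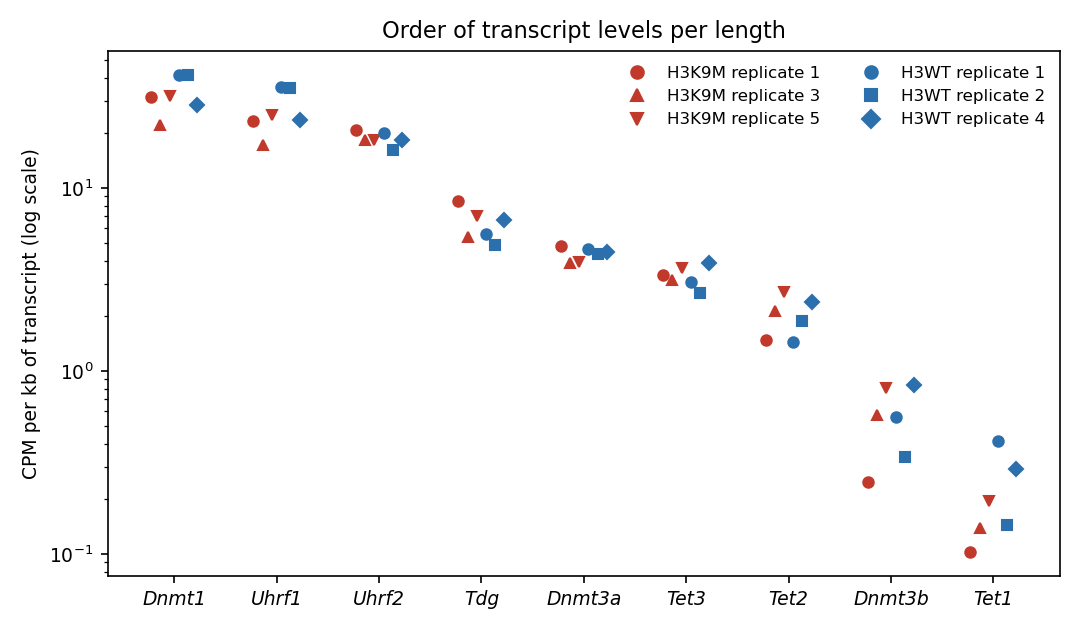
Level of each enzyme in CPM per kb of its longest transcript (log axis), ordered by the median over 6 libraries, with H3WT in blue and H3K9M in red. Dnmt1, Uhrf1 and Uhrf2 lie at 16.2 CPM per kb or more in every library, and Dnmt3b and Tet1 at 0.832 or less.

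Dnmt1, the maintenance methyltransferase (chromosome 9, 20907209 to 20959888, minus strand, GRCm38), had 243 and 244 CPM in H3WT replicates 1 and 2 and 168 CPM in H3WT replicate 4. In H3K9M it had 185, 129.6 and 187 CPM in replicates 1, 3 and 5. The groups overlapped because H3WT replicate 4 lay below 2 of the 3 H3K9M libraries, and H3K9M replicate 3 was the lowest. Mean levels were 167 ± 32.5 CPM for H3K9M against 218 ± 43.8 CPM for H3WT (SD, n = 3 each), a log2 fold change of -0.38 (SE 0.20, 95% interval -0.84 to 0.08, adjusted p 0.471, edgeR). Without H3K9M replicate 3 the log2 fold change was -0.22, and after a correction of each library for transcript length and GC it was -0.21 (unadjusted p 0.354).

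Uhrf1, the partner that reads half-methylated DNA and H3K9 methylation (chromosome 17, 56303321 to 56323486, plus strand), followed the same libraries. It had 128, 126 and 84.3 CPM in H3WT and 83.6, 61.7 and 89.3 CPM in H3K9M. Again only H3WT replicate 4 lay among the H3K9M libraries. Mean levels were 78.2 ± 14.6 CPM for H3K9M against 112.9 ± 24.7 CPM for H3WT (SD, n = 3 each), a log2 fold change of -0.53 (SE 0.20, 95% interval -0.999 to -0.06, unadjusted p 0.0315, adjusted p 0.364, edgeR). The unadjusted p rose above 0.05 when H3K9M replicate 1 (0.0523) or 3 (0.101) or H3WT replicate 1 (0.104) or 2 (0.0951) was left out, and after the correction for length and GC (0.0843). Without H3WT replicate 4 the log2 fold change was -0.70 for Uhrf1 and -0.54 for Dnmt1, with unadjusted p-values of 0.00638 and 0.0243 and adjusted p-values of 0.495 and 0.523.

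Uhrf2, the close relative of Uhrf1 that does not replace it in maintenance (chromosome 19, 30030513 to 30093722, plus strand), had 70.6, 57.3 and 64.3 CPM in H3WT and 73.4, 64.2 and 65.0 CPM in H3K9M. The 6 values lay between 57.3 and 73.4 CPM, with a log2 fold change of 0.08 (95% interval -0.23 to 0.38, adjusted p 0.868, edgeR). It was 0.01 without H3WT replicate 2 or H3K9M replicate 1, 0.15 without H3WT replicate 1, 0.12 without H3K9M replicate 3 and 0.04 after the correction for length and GC.

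Across the 6 libraries the nearest pattern to Uhrf1 among all tested genes was that of Chaf1a, the large subunit of the chromatin assembly factor that loads histones onto replicated DNA. Nearness was the root mean square difference in log2 CPM after each gene was centred on its own mean, and it was 0.03 between Uhrf1 and Chaf1a. Gcat (0.07), a mitochondrial enzyme of threonine breakdown, and Dnmt1 (0.08) followed. For Dnmt1 the nearest were Chaf1a (0.06), Uhrf1 (0.08) and Arhgef39 (0.08). Chaf1a had 92.0, 94.6 and 62.4 CPM in H3WT and 64.4, 45.7 and 65.2 CPM in H3K9M. On the log2 scale it differed by -0.51 (SE 0.21, adjusted p 0.382, edgeR), and these neighbours are a description over 6 libraries. For the other enzymes the nearest genes were Sars2 for Dnmt3a (0.04), U2af2 for Uhrf2 (0.04), Slc30a1 for Tet2 (0.06), Osbp for Tet3 (0.05), Myl12a for Tdg (0.06), Eml6 for Dnmt3b (0.17) and Gpr157 for Tet1 (0.18), so the low genes Dnmt3b and Tet1 had the least close neighbours.

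Maintenance enzymes are made mostly in dividing cells, so a list of 25 genes of DNA replication and mitosis was set beside them. All 25 were tested, 0 had an adjusted p under 0.05, and their median log2 fold change was -0.17, with 21 lower in H3K9M. Only E2f1, a transcription factor of the G1-to-S transition, had an unadjusted p under 0.05 (edgeR log2 fold change -0.66, SE 0.25, adjusted p 0.361), 1 of 25 where 12.2% of all genes were at that level in either direction. The mean log2 CPM of the list was 6.20, 6.31 and 5.72 in H3WT and 6.18, 5.59 and 6.09 in H3K9M. The groups overlapped, and H3WT replicate 4 and H3K9M replicate 3 were the lowest of their groups, as they were for Dnmt1 and Uhrf1.

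Relative to that mean, a comparison added after the data were seen, the log2 CPM values of the groups did not overlap for Dnmt1 and Uhrf1. Uhrf1 stood 0.80, 0.67 and 0.68 above it in H3WT and 0.20, 0.36 and 0.39 above it in H3K9M. Dnmt1 stood 1.73, 1.62 and 1.67 above it in H3WT and 1.35, 1.43 and 1.46 above it in H3K9M, in the same order. These were 2 of the 9 enzymes, and 2.56% of the 13736 tested genes outside the list were likewise lower in H3K9M without overlap. Without the subtraction that share was 8.68% of all tested genes. No share was taken over genes that follow the list as these 2 do, so 2.56% is not a like background for them. With the mean of the list as a covariate, also added after the data were seen, the log2 fold change was -0.40 for Uhrf1 (SE 0.12, 95% interval -0.68 to -0.12, unadjusted p 0.0117, adjusted p 0.309, edgeR) and -0.27 for Dnmt1 (SE 0.11, unadjusted p 0.0451, adjusted p 0.411, edgeR). In that fit 5.39% of all genes had an unadjusted p under 0.05 and were lower in H3K9M, and 0 of the 9 enzymes passed after adjustment, against 0.0145% of all genes. The ratio of Uhrf1 to Dnmt1 per kb was 0.741, 0.779 and 0.782 in H3K9M and 0.864, 0.845 and 0.823 in H3WT. This ratio reuses the values of the same 2 genes, and other gene pairs were not compared.

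**Figure D4:**
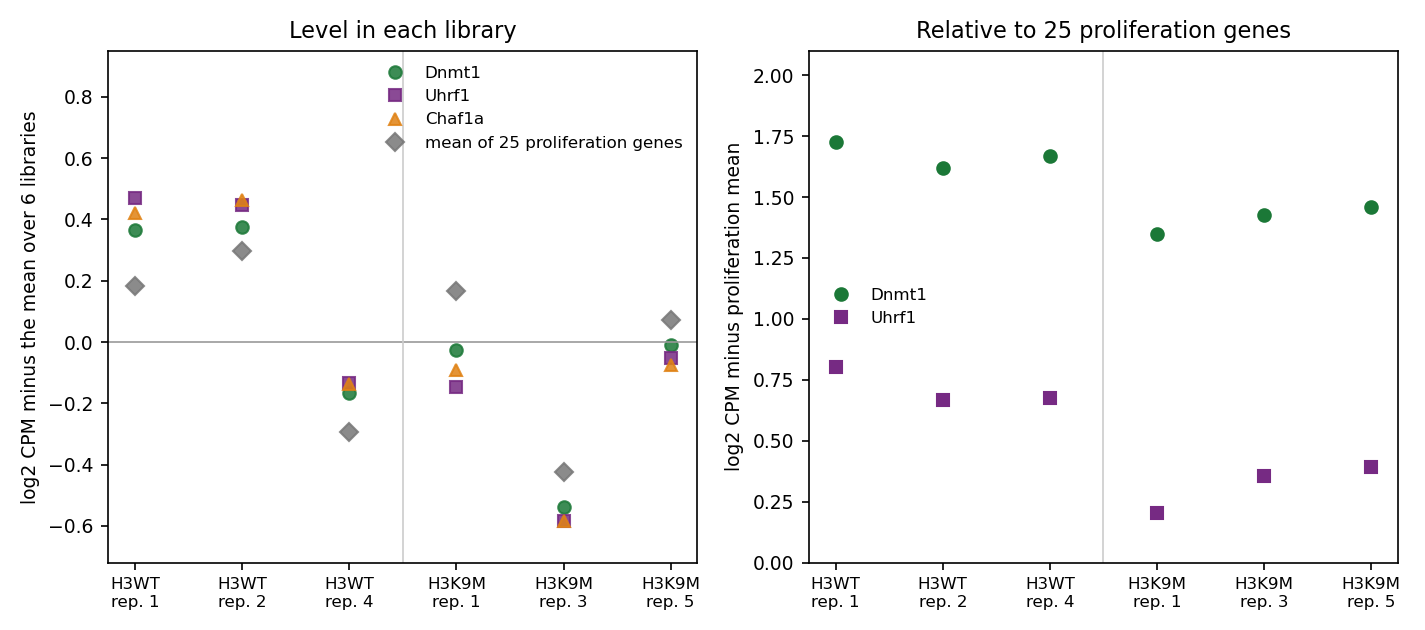
Left, log2 CPM minus the mean over 6 libraries for Dnmt1, Uhrf1, Chaf1a and the mean of 25 proliferation genes in each library. Right, log2 CPM of Dnmt1 and Uhrf1 minus the mean of the 25 proliferation genes, where all 3 H3K9M libraries lie below all 3 H3WT libraries for each gene.

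Because Dnmt1 and Uhrf1 followed each other over the libraries, their start regions were searched for the binding motif of E2F factors, which drive genes of DNA replication. RefSeq (GRCm38.p6) lists windows of 300 bases, from 250 before to 50 after a start, for all 9 enzymes. The 8-letter forms TTTCCCGC, TTTCGCGC, TTTGGCGC and TTTGCCGC were searched on both strands. Of the 9 enzymes, Dnmt1 and Uhrf1 held a match, as did 2.6% of 27025 gene symbols and 2.26% of 32851 windows. Of the proliferation list 9 of 20 genes with a window held a match, and the window of Chaf1a held none. A match was also held by 4 of 9 genes in the list of maintenance and de novo cofactors. So did 3 of 19 germline genes known to be silenced by promoter DNA methylation. The shares over all symbols and windows were not matched for CpG number, which had a median of 7 per window. The windows of Dnmt1 and Uhrf1 with matches are shown with the matches in capitals and the gene strand read 5′ to 3′. That of Dnmt1 is chr9:20952574-20952873 (minus strand), 1 of 3 listed starts, and that of Uhrf1 is chr17:56304063-56304362 (plus strand), 1 of 2.
Dnmt1: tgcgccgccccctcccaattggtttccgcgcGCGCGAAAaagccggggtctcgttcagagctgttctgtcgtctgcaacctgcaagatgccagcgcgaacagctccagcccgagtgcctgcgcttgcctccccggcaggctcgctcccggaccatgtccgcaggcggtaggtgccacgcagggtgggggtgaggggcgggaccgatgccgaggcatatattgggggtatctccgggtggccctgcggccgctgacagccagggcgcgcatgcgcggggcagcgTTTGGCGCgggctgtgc
Uhrf1: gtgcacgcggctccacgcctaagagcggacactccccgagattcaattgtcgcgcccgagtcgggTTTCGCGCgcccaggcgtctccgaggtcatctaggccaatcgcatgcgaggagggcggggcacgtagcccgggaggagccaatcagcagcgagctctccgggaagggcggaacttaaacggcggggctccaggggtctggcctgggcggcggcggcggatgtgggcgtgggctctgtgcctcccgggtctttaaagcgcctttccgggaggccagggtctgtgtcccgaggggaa
Dnmt1 carried a match on the opposite strand (GCGCGAAA) 219 bases before the listed start and a match on the gene strand (TTTGGCGC) 33 bases after it. Uhrf1 carried a match on the gene strand (TTTCGCGC) 185 bases before the start. Each of these windows held 33 CpG dinucleotides, a number reached by 8.56% of all windows. Matches are letters in a sequence and not measured binding, and gene counts do not tell which start was used.

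Dnmt3a, the more abundant de novo methyltransferase here (chromosome 12, 3806007 to 3914443, plus strand), varied less between libraries than Dnmt1 or Dnmt3b. It had 44.7, 42.4 and 43.2 CPM in H3WT and 46.8, 37.7 and 38.0 CPM in H3K9M. H3K9M replicate 1 was above all H3WT libraries and the other two H3K9M libraries were below them. The estimated log2 fold change was -0.09 (SE 0.14, 95% interval -0.42 to 0.24, adjusted p 0.855, edgeR), and it was 0.18 after the correction for length and GC, -0.20 without H3K9M replicate 1, -0.02 without H3K9M replicate 3 and -0.03 without H3K9M replicate 5.

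Dnmt3b, the de novo enzyme typical of early embryonic cells (chromosome 2, 153649450 to 153687730, plus strand), rested on few reads. It had 43, 28 and 61 counts in H3WT and 16, 51 and 68 counts in H3K9M. H3K9M replicate 1 was the lowest library and H3WT replicate 4 had the highest CPM, so both groups spanned almost the same range. Its estimate on the log2 scale was -0.08 (SE 0.63, 95% interval -1.54 to 1.37, adjusted p 0.975, edgeR), it was 0.26 without H3K9M replicate 1, 0.28 without H3WT replicate 4, -0.47 without H3K9M replicate 5 and -0.34 without H3WT replicate 2, and the interval held 2-fold differences in either direction. Per kb, Dnmt3b made up 11.6% ± 6.15 of the 2 de novo genes in H3K9M and 11.2% ± 4.31 in H3WT (SD, n = 3 each). Dnmt3l, the inactive relative that assists them in germ cells, had 0 to 13 counts and did not pass the filter.

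Among the oxidases, Tet1 (chromosome 10, 62804570 to 62908996, minus strand), known for its high level in pluripotent cells, was the lowest of the 9 per kb. It had 106, 40 and 71 counts in H3WT and 22, 41 and 55 counts in H3K9M. In CPM these were 5.95, 2.08 and 4.18 in H3WT and 1.47, 1.98 and 2.81 in H3K9M. H3WT replicates 1 and 4 stood above all H3K9M libraries, while H3WT replicate 2 lay below H3K9M replicate 5. Its estimate on the log2 scale was -0.96 (SE 0.55, 95% interval -2.22 to 0.30, adjusted p 0.51, edgeR), and it was -1.26 without H3WT replicate 2 (unadjusted p 0.0326, adjusted p 0.241) and -0.58 without H3WT replicate 1. Tet1 gave 2.54% ± 0.450 of the 3 Tet genes per kb in H3K9M and 5.32% ± 2.77 in H3WT (SD, n = 3 each), with H3WT replicate 1 at 8.42%.

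Tet2 (chromosome 3, 133463679 to 133545139, minus strand) had 13.2, 17.2 and 21.8 CPM in H3WT and 13.6, 19.5 and 24.7 CPM in H3K9M. The lowest library of each group was its replicate 1, and the spread within a group was wider than the difference between them. Its estimate on the log2 scale was 0.15 (SE 0.28, 95% interval -0.50 to 0.80, adjusted p 0.877, edgeR), and it was -0.06 without H3K9M replicate 5, -0.01 without H3WT replicate 1 and 0.35 without H3K9M replicate 1 or H3WT replicate 4. Tet3 (chromosome 6, 83362373 to 83459084, minus strand), the most abundant oxidase per kb, had 33.5, 29.0 and 42.2 CPM in H3WT and 36.4, 34.1 and 39.9 CPM in H3K9M. Its H3K9M values lay inside the H3WT range, with a log2 fold change of 0.08 (SE 0.18, 95% interval -0.33 to 0.48, adjusted p 0.899, edgeR). That of Tet3 was -0.03, 0.05 and 0.24 when H3WT replicates 2, 1 and 4 were left out in turn, 0.14 and 0.03 when H3K9M replicates 3 and 5 were, and 0.39 after the correction for length and GC (unadjusted p 0.0336, adjusted p 0.514). The 3 Tet genes together held 4.93 to 6.55 CPM per kb in H3K9M and 4.67 to 6.53 in H3WT, and the 3 Dnmt genes 26.5 to 36.6 and 33.8 to 46.5.

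Tdg, the glycosylase that removes oxidised methylcytosine (chromosome 10, 82629828 to 82650799, plus strand), had 19.7, 17.0 and 23.3 CPM in H3WT and 29.6, 18.8 and 24.7 CPM in H3K9M. H3K9M replicates 1 and 5 were the highest of all libraries, but H3K9M replicate 3 lay below 2 H3WT libraries. Its estimate on the log2 scale was 0.29 (SE 0.22, 95% interval -0.23 to 0.80, adjusted p 0.645, edgeR), 0.13 without H3K9M replicate 1, 0.19 without H3WT replicate 2 and 0.45 without H3K9M replicate 3. Its count is uncertain, since Tdg-ps shares 98.7% identity with it over 2968 bases and Gm9855 99.2% over 1194 bases, and the reads listed under these copies came to 4.04% to 8.26% of those of Tdg. Tdg also shares 367 exon bases with Glt8d2 on the opposite strand. Uhrf1 has a copy, Gm5648, of 98.3% identity over 1590 bases, and Dnmt3b resembles Dnmt3c (93.9% over 1434 bases). Gm5648, Dnmt3c and Gm5597, which shares 99.3% identity with Tdg over 1193 bases, have no counts listed under those names. Reads could be split between such genes.

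Genes around these enzymes were counted in lists, and no member of any list had an adjusted p under 0.05 (edgeR). Of 8 tested genes in the list of maintenance and de novo cofactors 0 had an unadjusted p under 0.05. Their median log2 fold change was -0.06, and the 8 include Trdmt1, a relative of the methyltransferases and not a cofactor. Hells, the remodeller that opens heterochromatin for methylation, had -0.30, and Lig1, the ligase of replication that recruits UHRF1, had -0.23. Of 12 genes listed as methyl-CpG readers or relatives of them, such as Mbd3, Mbd5 and Mbd6, 0 had an unadjusted p under 0.05 (median -0.12). Of 7 tested CXXC proteins, which bind unmethylated CpG, 1 was lower at that level, where 5.77% of all genes were (median -0.09). Kmt2b, an H3K4 methyltransferase, had 53.1, 46.7 and 75.1 CPM in H3K9M and 80.0, 77.7 and 78.4 CPM in H3WT, without overlap (edgeR log2 fold change -0.43, SE 0.18, adjusted p 0.393). Over 16 settings its log2 fold change ran from -0.65 to -0.09, with an unadjusted p under 0.05 in 8 of them. With Kdm2b (-0.31) it made 2 of the 7 that were lower without overlap, against 8.68% of all genes.

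In the list of base excision and deamination genes, which act after oxidation, 2 of 14 tested genes had an unadjusted p under 0.05, both higher in H3K9M, where 6.42% of all genes did so (median 0.16). Gadd45a, a stress gene proposed to couple repair to demethylation, had 28.3, 41.7 and 29.8 CPM in H3K9M and 10.9, 14.0 and 16.8 CPM in H3WT. The groups were well apart, with a log2 fold change of 1.26 (SE 0.24, 95% interval 0.72 to 1.80, unadjusted p 0.000647, adjusted p 0.17, edgeR). DESeq2 called it, with an adjusted p of 0.00146. Polb, the polymerase that fills the gap left by base excision, had 29.7, 23.4 and 25.6 CPM in H3K9M against 18.1, 12.7 and 18.3 CPM in H3WT, also without overlap (edgeR log2 fold change 0.68, SE 0.21, adjusted p 0.28, and 0.185 with DESeq2). Apex1 and Lig3, of the same repair route, were apart as well but differed little (log2 fold changes 0.15 and 0.19, unadjusted p 0.223 and 0.188). In all, 4 of the 14 were higher in H3K9M without overlap, against 10.7% of all genes. By direction alone, 8 of the 14 estimates were higher and 6 were lower. Ung (-0.60), Gadd45g (-0.37), Parp1 (-0.23) and Xrcc1 (-0.12) were among the lower ones, each with overlap between the groups.

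The list of methyl donor and 2-oxoglutarate supply had 3 of 19 tested genes at an unadjusted p under 0.05 (median 0.14), 1 higher and 2 lower in H3K9M, where 12.2% of all genes were at that level in either direction. Idh2 and Fh1 were among them. Idh2, the mitochondrial producer of the TET cosubstrate, had 88.8, 61.0 and 94.9 CPM in H3K9M against 130.2, 102.7 and 120.3 CPM (edgeR log2 fold change -0.53, SE 0.18, adjusted p 0.321), and its log2 fold change ran from -0.64 to -0.35 over 16 settings. Fh1, which removes the TET inhibitor fumarate, had 68.9, 65.5 and 61.6 CPM in H3K9M against 52.5, 52.7 and 50.7 CPM (edgeR log2 fold change 0.33, SE 0.12, adjusted p 0.328). Both of these genes were without overlap between the groups. Of the 19 tested genes 2 were higher and 2 lower without overlap, against 10.7% and 8.68% of all genes. Mat2a, which makes the methyl donor, and Ahcy, which clears its product, had log2 fold changes of -0.18 and 0.16.

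**Figure D5:**
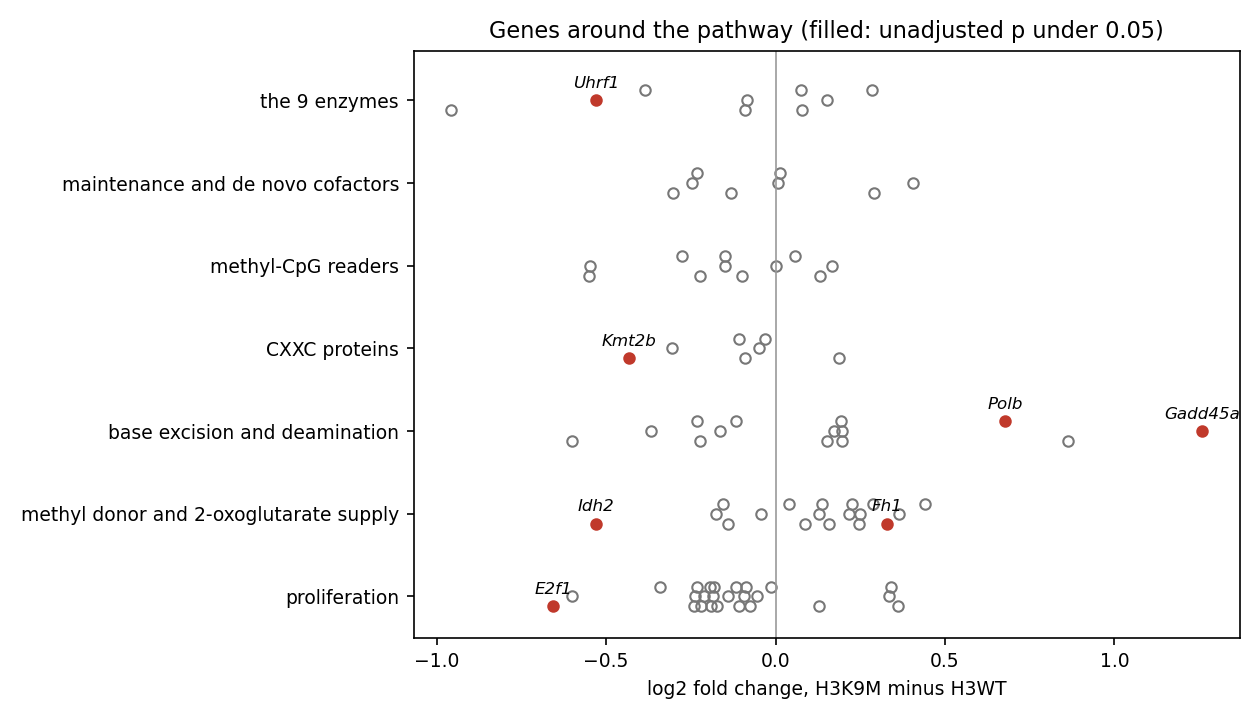
Log2 fold change (H3K9M minus H3WT) of the tested genes reported here, from the 9 enzymes and 6 surrounding lists, with filled red points for an unadjusted p under 0.05 and open grey points for the others. Gadd45a and Polb lie highest among the filled points and E2f1, Uhrf1, Idh2 and Kmt2b lie below 0.

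Germline genes that promoter DNA methylation is known to silence in body cells were mostly without reads or too low to test. Of 20 such genes 10 had no read in any library and 3 passed the filter, and of those 3 none had an unadjusted p under 0.05 (0 of 3). Those 3 were Tdrkh, a partner of PIWI proteins, at 3.24 to 7.50 CPM, Brdt, a testis bromodomain protein, at 0.969 to 3.83 CPM, and Ddx4, a germ cell helicase, at 0 to 0.918 CPM. Dazl, a germ cell RNA-binding protein, had 3 counts in H3K9M replicate 5 and 0 in the other 5 libraries. Piwil2, a partner of small RNAs in germ cells, had 10, 14 and 10 counts in H3K9M and 0, 0 and 6 in H3WT, and it did not pass the filter. Tex14 had 8, 0 and 0 counts in H3K9M and 0, 0 and 6 in H3WT, and Tdrd1 had 0, 14 and 0 against 7, 0 and 1. Like Dazl, Stk31 (6 counts in replicate 5), Taf7l (2 in replicate 1) and Slc25a31 (8 in replicate 3) had reads in H3K9M alone. These genes were too low to test.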

How the data were processed

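The authors deposited 1 table of raw read counts per gene symbol with a column for each of the 6 libraries, per the file headers. Per the submitters' processing notes, HISAT2, featureCounts, DESeq2 and the build mm10 were used. Versions, annotation and strand setting are not given in the sources used here.

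Counts were fitted in R 4.3.3 with edgeR 4.0.16: filterByExpr (count minimum 10), TMM, robust quasi-likelihood fit with genotype as the only term, and Benjamini-Hochberg adjustment over 13761 genes at 0.05. The SE is the log2 fold change divided by the root of F, and 95% intervals use it with the t distribution of the fit. Log2 CPM used a prior count of 2. Alternatives used DESeq2 1.42.0, limma 3.58.1 (voom), other scalings and filters, a loess correction of each library for transcript length and GC (span 0.5, 96.7% of tested genes), and fits without each library. Lengths, loci, overlaps and similar transcripts (blastn 2.17.0, at least 90% identity over 200 bases) came from GENCODE M21 on GRCm38, the assembly that mm10 names. The fits were tested on simulated data. Replicate libraries differed by at least 27.9 times sampling variance, so none was counted as a repeat deposit of another, and this does not tell whether they share a source.

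The members and lists were chosen with earlier results of these data known. Named genes were the 9 enzymes, list genes with an unadjusted p under 0.05 (up to 5 a list, some of which are counted but not reported by name here), the 3 nearest patterns per enzyme and the cell markers. Other list genes and neighbours are named as examples, chosen after their values were seen. Pclaf, Cnmd and Snorc were matched through RefSeq synonyms. With 3 libraries against 3, an exact permutation test cannot go below 0.1, so none was run.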

Additional observations from a re-analysis of the deposited data

How the results depend on the processing

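The count of all genes past the threshold was 0 in the reported fit, 365 with DESeq2, 36 with every gene that had a count, 1 at an adjusted p under 0.10 and 2 with the proliferation mean as a covariate, the last setting being chosen after the data were seen. Leaving out a library gave 0 to 91 genes, with 91 without H3WT replicate 2 and 2 without H3K9M replicate 3. The cause was not tested. Of the 9 enzymes 0 passed under each of these settings. The count at an unadjusted p under 0.05 was 1 in the reported fit, 2 at a threshold of 0.10, 2 with the covariate, and 0 to 2 over the fits that dropped a library (0 without H3K9M replicate 1, H3K9M replicate 3 or H3WT replicate 1, and 2 without H3WT replicate 4). The share of all genes at an unadjusted p under 0.05 in either direction was 12.2% in the reported fit and 11.8% with the covariate. That share is not given here for the other settings. Dnmt1, Uhrf1, Uhrf2, Tet1 and Tdg kept their direction under all 15 alternatives. The sign turned with the correction for length and GC for Dnmt3a (0.18) and Dnmt3b (0.057). Over the fits that dropped a library, the log2 fold change of Dnmt3b ran from -0.47 to 0.28, with 0.26 without H3K9M replicate 1. That of Tet2 ran from -0.058 to 0.35, with -0.01 without H3WT replicate 1, and that of Tet3 from -0.028 to 0.24. The fewest reads were behind Dnmt3b and Tet1, with 16 to 68 and 22 to 106 counts, and their coefficients of variation between libraries of a group were 43.1% to 51.6% and 32.2% to 47.7%. No paired analysis was possible because the groups share only replicate number 1.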
